A study of Mus musculus with 8 samples.

Results

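The Fc receptor genes of microglia are described here as 7 genes, found by symbol in the deposited count table, which holds 51810 genes. They were Fcgr1, Fcgr3 and Fcgr4, the activating receptors for the constant part of IgG, Fcgr2b, the inhibitory one, Fcer1g, the gamma chain that the activating receptors signal through, Fcrls, an Fc receptor-like gene, and Fcgrt, the heavy chain of the neonatal Fc receptor. All 7 passed the filter on low counts, with 16237 genes of the table. The libraries were made from polyadenylated RNA of cells that bound CD11b microbeads, which take up microglia and further myeloid cells, after myelin had been removed, and were read on an Ion Proton instrument. There were 4 groups of 2 libraries, all from wild-type mice: white matter at 21 months, grey matter at 21 months, white matter at 4 months and grey matter at 4 months. White matter was the corpus callosum, the large fibre tract between the hemispheres. The sample labels give that region for the grey matter libraries too, and the regions were told apart here by titles and tissue labels. Whether both libraries of a group were made from different animals is not stated, so each p-value measures the spread between these libraries, which may be technical.

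Fc receptors let phagocytes bind antibody-coated targets. The activating receptors pair with the gamma chain, whose ITAM motif is phosphorylated by Src family kinases and then recruits the kinase Syk, which leads to uptake of the target and inflammatory output. Fcgr2b carries an ITIM motif of its own, through which phosphatases such as the product of Inpp5d dampen the same signal, and the balance of both kinds is held to set how strongly a microglial cell responds to immune complexes.

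Library totals ran from 3273258 to 6315782 counts. The first library of white matter at 4 months stood farthest apart. Its 12 oligodendrocyte markers summed to 65384 CPM (counts scaled to a common library total with TMM factors), against 201 to 823 CPM in the other libraries. Its 13 microglia markers, such as P2ry12 and Tmem119, summed to 4356 CPM, against 15777 to 24696 CPM elsewhere. The microglia label thus had its markers in every library, least in that one. Each comparison of groups that uses that library was tested with and without it. Some results of other methods, ratios and marker averages are given with it alone. Neutrophil markers, such as S100a8, summed to 998 and 557 CPM in white and to 2997 and 2705 CPM in grey matter at 21 months, and to 395 and 1123 CPM in white and 5474 and 2788 CPM in grey matter at 4 months. All 12 of them were lower on average in white than in grey matter at both ages. The 12 border macrophage markers, such as Mrc1, summed to 371 and 503 CPM in white and 789 and 885 CPM in grey matter at 21 months, and to 99.9 and 633 CPM in white and 1032 and 912 CPM in grey matter at 4 months. The 12 monocyte markers, such as Ccr2, summed to 609 and 491 CPM in white and 985 and 713 CPM in grey matter at 21 months, and to 327 and 586 CPM in white and 1009 and 646 CPM in grey matter at 4 months. The 10 markers of choroid plexus and ependyma, such as Ttr, also parted the white matter libraries. They summed to 313 and 9628 CPM in white and 368 and 268 CPM in grey matter at 21 months, and to 2148 and 5682 CPM in white and 186 and 20.8 CPM in grey matter at 4 months, so the second library of each white matter group carried most. Neutrophils, monocytes and border macrophages also express Fc receptors, and the part of these cells and of choroid plexus RNA in the results below was not tested. In such bulk libraries fewer cells of a type and less RNA per cell cannot be told apart.

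In the GENCODE vM21 annotation (GRCm38), Fcgr2b, Fcgr4, Fcgr3 and Fcer1g lie in this order on chromosome 1, Fcrls and Fcgr1 on chromosome 3 and Fcgrt on chromosome 7. The build behind the counts is not given in the sources used here. The 150 bases before the start site of the 3 activating receptor genes are shown from the RefSeq promoter table (GRCm38.p6), since these genes share a short motif there. The windows are chr3:96293970-96294119 on the minus strand for Fcgr1, chr1:171059404-171059553 on the minus strand for Fcgr3 and chr1:171018776-171018925 on the plus strand for Fcgr4. Each is written 5′ to 3′ along its gene, and capitals mark CTTCCTC, the reverse complement of GAGGAAG, a form of the site bound by the myeloid factor PU.1.
Fcgr1: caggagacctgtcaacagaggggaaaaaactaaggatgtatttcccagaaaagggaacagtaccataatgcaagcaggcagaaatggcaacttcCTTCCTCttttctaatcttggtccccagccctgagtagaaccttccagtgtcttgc
Fcgr3: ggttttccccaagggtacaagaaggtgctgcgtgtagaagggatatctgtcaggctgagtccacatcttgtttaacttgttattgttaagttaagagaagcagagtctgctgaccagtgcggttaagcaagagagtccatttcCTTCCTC
Fcgr4: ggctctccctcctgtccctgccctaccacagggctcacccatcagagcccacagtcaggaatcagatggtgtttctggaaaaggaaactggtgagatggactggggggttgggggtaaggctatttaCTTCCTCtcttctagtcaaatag
The table lists 1 more start for Fcgr3, 9 bases downstream. The first listed is shown, which is also where the principal GENCODE transcript begins, while another GENCODE transcript of Fcgr3 begins 5532 bases upstream. The motif stood 50 to 56 bases before the start site of Fcgr1, 1 to 7 before that of Fcgr3 and 17 to 23 before that of Fcgr4. Read on both strands, GAGGAAG was in the windows of 4 of the 7 genes, the fourth being Fcrls, and in 2251 of 32851 RefSeq promoter windows of that length (6.85%). These letters were not in the windows of Fcgr2b, Fcer1g and Fcgrt. A gamma-interferon type site, TTCNNNGAA, was in the window of Fcgr1 alone among the 7 (4.09% of all windows), and a form of the interferon-stimulated response element in that of Fcgr4 alone (1.59%). The motifs were chosen after the sequences were seen, and a match is a description of letters, not of binding.

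A second sequence bears on the contrast of activating and inhibitory receptors. The coding sequences of Fcgr3 and Fcgr2b share 129 identical bases in a row, at positions 263 to 391 of Fcgr3 and 278 to 406 of Fcgr2b counted from the start codon, whereas no other pair of the 7 shares more than 15.
Fcgr3 and Fcgr2b: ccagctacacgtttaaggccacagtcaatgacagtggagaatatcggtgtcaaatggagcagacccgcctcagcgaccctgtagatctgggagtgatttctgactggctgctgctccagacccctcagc
Reads that fall wholly in that stretch belong equally to the activating and the inhibitory gene. How the counting treated them is not stated, so the levels of these 2 genes are less certain than those of the rest. Their deposited estimated counts lay within 0.01 of whole numbers in every library.

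Among the activating receptors, Fcgr1, the high-affinity receptor for IgG, had 181 and 145 CPM in white and 148 and 147 CPM in grey matter at 21 months. At 4 months it had 42.2 and 132 CPM in white matter and 240 and 167 CPM in grey matter. The regions overlapped at 21 months, while at 4 months both white matter libraries lay below both grey matter libraries. In white matter both 21-month libraries were above both 4-month ones, and in grey matter both 21-month libraries were below both 4-month ones.

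Fcgr3, a low-affinity activating receptor and the one with the most counts of the 3, had 378 and 300 CPM in white and 319 and 349 CPM in grey matter at 21 months. In the 4-month libraries it had 92.3 and 242 CPM in white and 544 and 299 CPM in grey matter. Its 2 grey matter groups overlapped, and its 4-month white matter libraries were the lowest of all 8.

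Fcgr4, an activating receptor for IgG2 classes that neutrophils and monocytes also carry, had few counts in these libraries. It had 9.70 and 7.20 CPM in white and 5.15 and 8.65 CPM in grey matter at 21 months. The 4-month values were 6.18 and 5.52 CPM in white and 17.6 and 7.31 CPM in grey matter. These rest on 17 to 101 counts a library, and 17 counts carry an exact Poisson interval of 9.90 to 27.2, which covers counting error only. The libraries of neighbouring groups overlapped throughout when the groups were put in order of their means.

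The inhibitory receptor Fcgr2b had 160 and 157 CPM in white and 171 and 191 CPM in grey matter at 21 months. At 4 months the gene had 22.5 and 113 CPM in white and 253 and 138 CPM in grey matter. At both ages the white matter libraries lay below the grey matter ones without overlap, by a small margin at 21 months. An antisense gene, Gm38204, overlaps Fcgr2b, but it had 4 counts in all 8 libraries together.

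The gamma chain gene Fcer1g had 619 and 516 CPM in white and 430 and 460 CPM in grey matter at 21 months. In mice of 4 months it had 142 and 335 CPM in white and 833 and 374 CPM in grey matter. At 21 months both white matter libraries were above both grey matter ones, the opposite order to Fcgr2b, and at 4 months they were below.

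Fcrls, known in mice as a gene of the microglial signature with no settled ligand, had 443 and 553 CPM in white and 630 and 717 CPM in grey matter at 21 months. The 4-month libraries had 87.6 and 446 CPM in white and 1080 and 751 CPM in grey matter. Its white matter libraries were lower than its grey matter libraries at both ages, with no overlap.

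Fcgrt, whose product carries IgG inside cells and protects it from breakdown, had 22.2 and 27.8 CPM in white and 27.5 and 32.4 CPM in grey matter at 21 months. At 4 months the values were 4.72 and 23.6 CPM in white and 58.3 and 30.5 CPM in grey matter. Regions overlapped at 21 months and did not at 4 months. The antisense gene Gm45669, which overlaps it, had 38 counts in all.

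**Figure D1:**
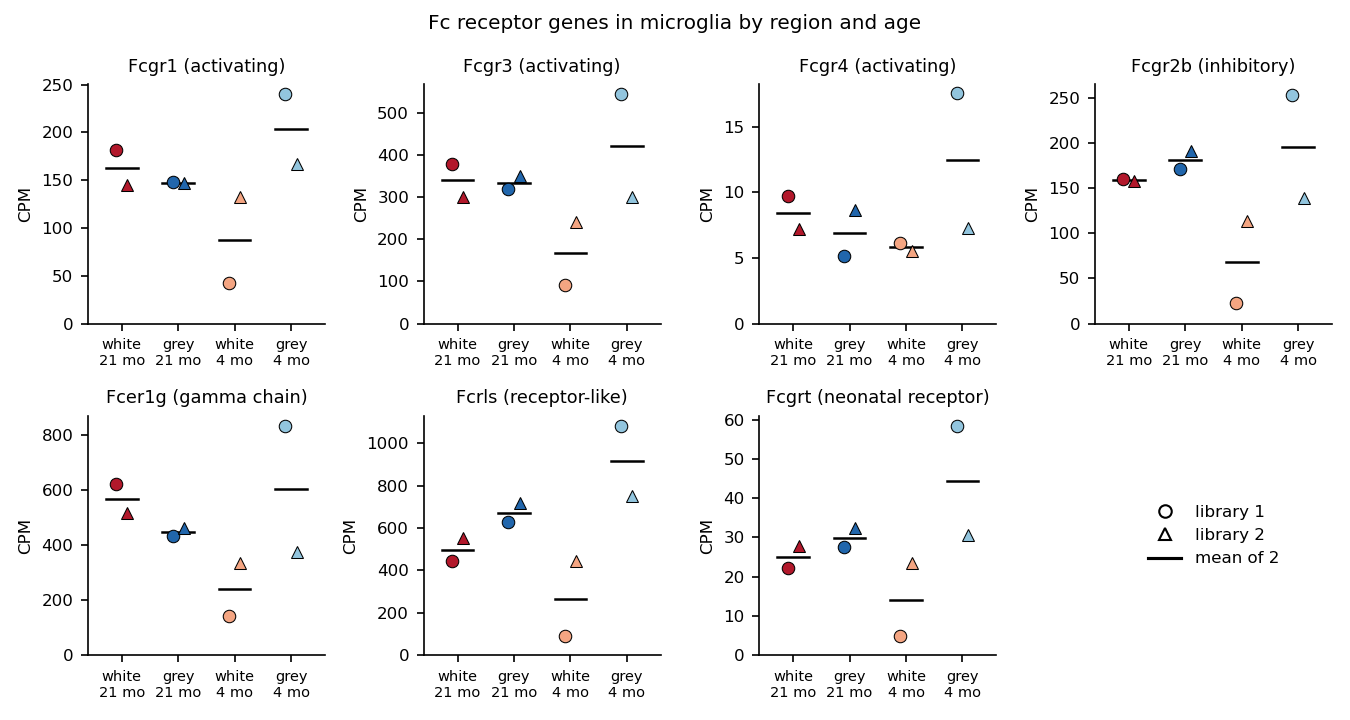
CPM (vertical axis, linear from 0, one scale per gene) of the 7 Fc receptor genes in the 4 groups of region and age; circles are library 1, triangles library 2, bars the mean of the 2. Grey matter at 4 months has the highest mean and white matter at 4 months the lowest for each gene, and the first 4-month white matter library is lowest for 6 of the 7.

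The order of the group means was the same at both ends for all 7 genes, with 4-month grey matter highest and 4-month white matter lowest. For Fcgr1, Fcgr3, Fcgr4 and Fcer1g, 21-month white matter came second, and for Fcgr2b, Fcrls and Fcgrt 21-month grey matter did. Fcer1g averaged 567 ± 73.3 CPM in white and 445 ± 21.1 CPM in grey matter at 21 months, and 239 ± 137 CPM in white and 603 ± 325 CPM in grey matter at 4 months (SD, n = 2 each). Fcrls averaged 498 ± 77.8 CPM in white and 673 ± 61.7 CPM in grey matter at 21 months, and 267 ± 253 CPM in white and 916 ± 232 CPM in grey matter at 4 months (SD, n = 2 each). With its first library set aside, white matter at 4 months was still lowest for all 7, since its second library lay below each other group's mean. With its first library set aside, grey matter at 4 months stayed highest for Fcgr1, Fcrls and Fcgrt and not for the other 4. All 7 genes were highest in the first 4-month grey matter library, as were 16.9% of the genes tested. All but Fcgr4 were lowest in the first 4-month white matter library, as were 36% of the genes tested. Fcgr4 was lowest in the first 21-month grey matter library.

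Per kilobase of the principal GENCODE transcript, Fcer1g had the highest level of the 7 in every group, from 354 CPM per kilobase in 4-month white matter to 895 in 4-month grey matter. Fcgr4 had the lowest, from 4.66 to 9.92 CPM per kilobase in the same groups. Among the Fc gamma receptors Fcgr3 had 252 CPM per kilobase in 21-month white matter, Fcgr1 62.9, Fcgr2b 44.7 and Fcgr4 6.73, and this order held in all 4 groups. With lengths taken over all exons the same order of these 4 held, while Fcrls, below Fcgr3 in both white matter groups by the principal transcript, stood above it.

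At 21 months, white and grey matter differed by little. The gamma chain was on the higher side in white matter, Fcrls and the inhibitory Fcgr2b on the lower side, and none passed the test. edgeR's quasi-likelihood test with Benjamini-Hochberg adjustment, fitted to all 8 libraries, called 0 of the 7 genes and 0 of the 16237 tested (0%). An unadjusted p under 0.05 was found for 381 genes (2.35%), none of the 7 among them. DESeq2 called 54 genes there (0.361%), none of the 7. The log2 fold change of white over grey matter was 0.35 ± 0.57 for Fcer1g, 0.30 ± 0.58 for Fcgr4, 0.14 ± 0.54 for Fcgr1, 0.023 ± 0.55 for Fcgr3, -0.19 ± 0.69 for Fcgr2b, -0.26 ± 0.68 for Fcgrt and -0.44 ± 0.71 for Fcrls (SE). Their median was 0.023, against 0.017 over all genes tested. Without the first library of white matter at 4 months, the same comparison called 19 genes (0.109%) and none of the 7.

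The errors of that fit take in the spread of the 4-month white matter libraries. A fit of the 4 libraries of 21 months alone gave near the same fold changes with smaller errors, and it called 232 of 14717 genes (1.58%) and again 0 of the 7. In it Fcrls differed by -0.45 with a 95% interval of -0.83 to -0.063 and an adjusted p of 0.334 in edgeR's quasi-likelihood test. Fcer1g differed by 0.34 with an interval of -0.031 to 0.71 and an adjusted p of 0.507 in edgeR's test. The intervals of the activating receptors ran from -0.25 to 0.52 for Fcgr1 and from -0.37 to 0.40 for Fcgr3, and that of Fcgr2b from -0.55 to 0.15. Fcgr4, with its low counts, had an interval of -0.64 to 1.25, and Fcgrt one of -0.80 to 0.27. Without overlap between the libraries, Fcer1g was higher in white matter, as were 20.9% of all genes tested, and Fcgr2b and Fcrls were lower, as were 19.5%. Without the first library of white matter at 21 months the sign turned for Fcgr1 (-0.057) and Fcgr3 (-0.18), and without the first of grey matter for Fcgr3 (-0.040) and Fcgr4 (-0.034), none of them called.

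At 4 months all 7 genes were on the lower side in white matter, again with none called. The log2 fold changes of white over grey matter were -1.78 ± 0.73 for Fcrls, -1.63 ± 0.70 for Fcgrt, -1.52 ± 0.70 for Fcgr2b, -1.34 ± 0.58 for Fcer1g, -1.33 ± 0.56 for Fcgr3, -1.22 ± 0.55 for Fcgr1 and -1.09 ± 0.59 for Fcgr4 (SE). Adjusted p-values in edgeR's test ran from 0.55 to 0.646. Of the 16237 genes tested 0 were called (0%), and 1446 (8.91%) had an unadjusted p under 0.05, Fcgr3 and Fcrls among them. DESeq2 called 515 genes (3.51%) and none of the 7, with 6 of the 7 and 10.9% of all genes at an unadjusted p under 0.05. In all 7 genes both white matter libraries were below both grey matter libraries, as in 15.5% of all genes tested. The median over the 7 was -1.34, against 0.011 over all genes tested.

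For all but Fcgr4, the size of these fold changes depended on the first 4-month white matter library, the one with oligodendrocyte markers. Without it the fold changes of the others shrank to between -1.02 ± 0.32 for Fcrls (SE) and -0.60 for Fcgr1. That of Fcgr4 did not shrink, at -1.15 against -1.09 with all libraries. In that fit edgeR's test called 0 of the 7 and 0 of 17509 genes. By the same test 1 of the 7, Fcrls, and 4.45% of all genes were at an unadjusted p under 0.05. Without the second library instead, white matter at 4 months is that 1 library, whose spread is assumed to be like that of the other groups. The fold changes then reached -3.42, and edgeR's test called all but Fcgr4 and 23.6% of all genes tested. The first 4-month grey matter library, in which all 7 genes were highest, bears on the size of the fold changes too. Fcgr4 had 17.6 CPM there and 7.31 CPM in the second, against 6.18 and 5.52 CPM in white matter. In the second libraries Fcer1g had 335 CPM in white and 374 CPM in grey matter, and Fcrls 446 and 751 CPM. The 4-month fold changes without that grey matter library are not given here. Relative to the summed microglia markers of its own library, Fcgr1 was at 0.968% and 0.804% in 4-month white matter, against 0.973% and 0.863% in 4-month grey matter. Fcgr2b by the same measure was at 0.517% and 0.689%, against 1.02% and 0.714%, and Fcrls at 2.01% and 2.71%, against 4.37% and 3.87%. Fcgr1 thus overlapped between regions on this scale, and Fcgr2b and Fcrls did not, Fcgr2b by a small margin (0.689% against 0.714%). How many of all genes part in this way on this scale was not counted.

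When library sizes were replaced by the summed microglia markers, a scaling chosen after the data were seen that takes these markers as level, the 4-month fold changes of the 7 genes ran from -0.80 to 0.61 with a median of -0.062. On that scale the median of all genes tested stood at 1.53, and edgeR's test called none of the genes. Fcgr4 turned positive.

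**Figure D2:**
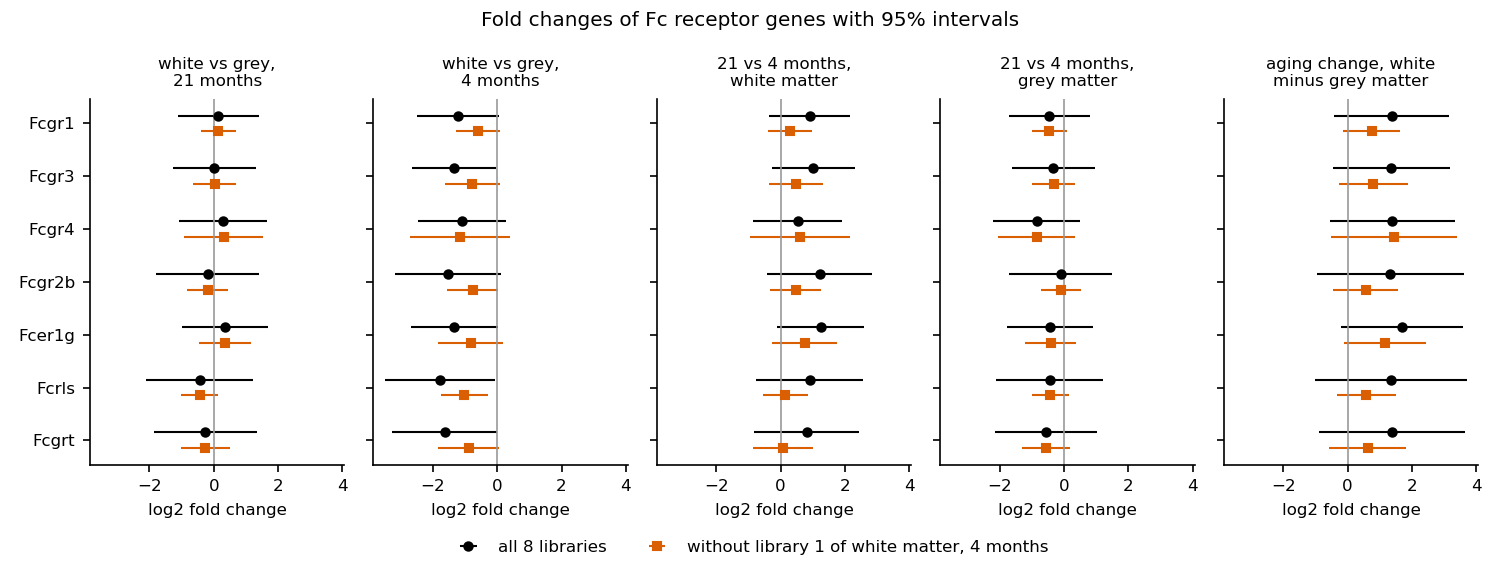
Log2 fold changes (horizontal axis) with 95% intervals from edgeR for the 7 genes in the 5 comparisons, from all 8 libraries (black circles) and without library 1 of 4-month white matter (orange squares). At 4 months every gene lies left of 0, between -1.78 and -1.09 with all libraries and between -1.15 and -0.60 without that library.

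With age, all 7 genes were on the higher side in white matter, and none was called. The log2 fold change of 21 over 4 months in white matter was 1.25 ± 0.58 for Fcer1g, 1.22 ± 0.70 for Fcgr2b, 1.02 ± 0.55 for Fcgr3, 0.90 ± 0.54 for Fcgr1, 0.90 ± 0.71 for Fcrls, 0.80 ± 0.69 for Fcgrt and 0.53 ± 0.59 for Fcgr4 (SE). Adjusted p-values in edgeR's test ran from 0.622 to 0.788, with 0 of 16237 genes called (0%), 1316 genes (8.1%) at an unadjusted p under 0.05 and none of the 7 among those. DESeq2 called 369 genes (2.57%) and none of the 7. Both 21-month libraries were above both 4-month libraries for Fcgr1, Fcgr3, Fcgr4, Fcgr2b and Fcer1g, as in 19.8% of all genes tested, while Fcrls and Fcgrt overlapped. Without the first 4-month white matter library edgeR's test called 1 gene (0.00571%), none of the 7, and the largest fold changes among the 7 were those of Fcer1g (0.75 ± 0.44, SE) and Fcgr4 (0.60 ± 0.68, SE), and Fcrls (0.14) and Fcgrt (0.070) were near 0. Without the second library instead, which again leaves 1 library in that group, edgeR's test called all of the 7 but Fcgr4, with 25.1% of all genes. The microglia markers moved the same way, all 13 being higher on average in 21-month white matter. Their sums were 16755 and 16523 CPM there, against 4356 and 16447 CPM in 4-month white matter. The second 4-month library thus lay close to the 21-month ones, and the rise of the sum rests mainly on the first. On the scale of those markers the white matter fold changes ran from -0.71 for Fcgr4 to 0.66, while the median of all genes was -1.12.

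In grey matter all 7 genes were on the lower side at 21 months, from -0.86 ± 0.58 for Fcgr4 to -0.11 ± 0.68 for Fcgr2b (SE), with a median of -0.44 against -0.017 over all genes. Adjusted p-values were 1 in edgeR's test, 0 of 16237 genes were called (0%), and 119 (0.733%) had an unadjusted p under 0.05, none of the 7 among them. DESeq2 called none. Fcgr1 and Fcrls were lower in both 21-month libraries than in either 4-month one, as were 17.3% of all genes. Without the first 4-month grey matter library, in which the 7 genes were highest, Fcgr3 (0.15), Fcgr2b (0.38) and Fcer1g (0.25) turned positive. Of the microglia markers 12 of 13 were lower on average at 21 months in grey matter, and all 12 neutrophil markers were. On the microglia scale Fcgr3 (0.038) and Fcgr2b (0.26) were positive and the median of all genes was 0.31.

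The aging change of white matter exceeded that of grey matter by 1.33 to 1.69 on the log2 scale, most for Fcer1g (1.69 ± 0.81, SE). On the scale of the microglia markers the differences ran from -0.23 for Fcgr4 to 0.44 for Fcgrt, with the median of all genes at -1.45. With TMM scaling, edgeR's test of the difference gave adjusted p-values of 1 for each of the 7 and called 0 of 16237 genes (0%). Of these genes 455 (2.8%) had an unadjusted p under 0.05, none of the 7 among them. DESeq2 called 20 of the 5219 genes to which it gave an adjusted p (0.383%) and none of the 7. It gave none to Fcgr4 and Fcgrt. Without the first 4-month white matter library the differences were 0.57 to 1.45, and without the second, with 1 library left in that group, edgeR's test called all but Fcgr4, with 13.6% of all genes.

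The balance of activating and inhibitory receptors was taken within each library, where differences in the amount of microglial RNA act on both sides of the ratio. Other cells in the libraries also express Fc receptors, and their part in the ratio was not tested. Fcgr2b made up 21.9% and 25.8% of the counts of the 4 Fc gamma receptors in 21-month white matter, against 26.6% and 27.5% in 21-month grey matter. In 4-month white matter it made up 13.8% and 23.0%, against 24.0% and 22.6% in 4-month grey matter. The Wilson 95% interval of the lowest share, 62 of 449 counts, was 10.9% to 17.3%, that of the first 21-month white matter library 20.5% to 23.4%, and that of the second 21-month grey matter library 25.8% to 29.3%. At 21 months both white matter shares were below both grey matter shares, although the interval of the second white matter library (24.1% to 27.6%) overlapped those of both grey matter libraries. In grey matter both 21-month shares were above both 4-month shares. In white matter the ages overlapped.

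**Figure D3:**
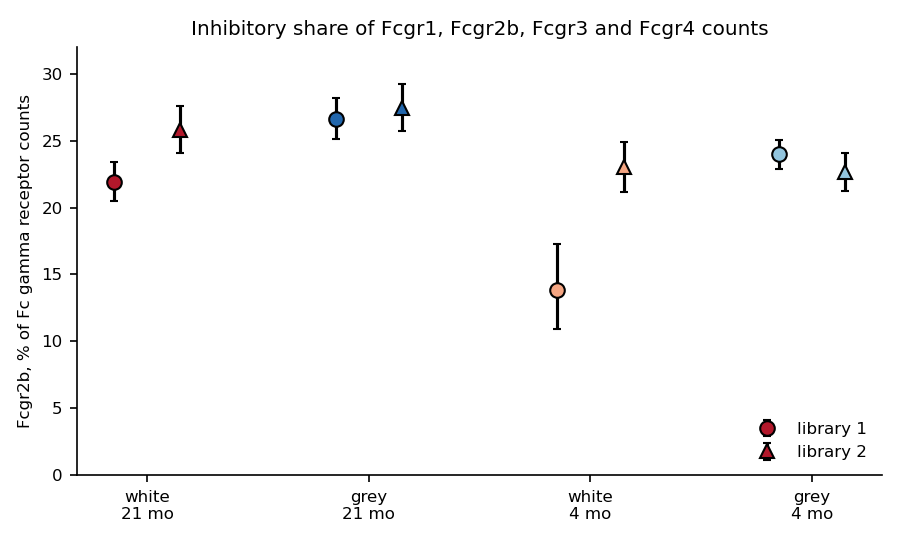
Fcgr2b as a percentage of the summed counts of Fcgr1, Fcgr2b, Fcgr3 and Fcgr4 (vertical axis from 0) in each library, with Wilson 95% intervals for counting error. The first 4-month white matter library is lowest at 13.8%, and the 2 grey matter libraries of 21 months are highest at 26.6% and 27.5%.

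On the log2 scale the summed activating counts over Fcgr2b averaged 1.68 ± 0.22 in white and 1.43 ± 0.043 in grey matter at 21 months, a difference of 0.25 (SD, n = 2 each). At 4 months they averaged 2.19 ± 0.64 in white and 1.72 ± 0.078 in grey matter, a difference of 0.47 that overlapped between libraries (SD, n = 2 each). The first 4-month white matter library had 2.64 and the second 1.74, near the means of 4-month grey and 21-month white matter. The aging difference was -0.52 in white matter, with overlap, and -0.29 in grey matter, without. Both the 0.47 and the -0.52 rest mainly on the first 4-month white matter library. These ratios are given as a description, with no test. At 21 months each of Fcgr1, Fcgr3 and Fcgr4 was higher relative to Fcgr2b in both white matter libraries, and so were 35% of all genes tested. In aged grey matter each of the 3 was lower relative to Fcgr2b than at 4 months, and so were 13% of all genes. At 4 months all 3 ratios overlapped between the regions, while 64% of all genes were higher relative to Fcgr2b in both white matter libraries. With age in white matter Fcgr1 was lower relative to Fcgr2b without overlap, as were 60.6% of all genes, and Fcgr3 and Fcgr4 overlapped. Within the activating receptors Fcgr1 kept close to Fcgr3, with a log2 ratio between -1.25 and -0.84 over the 8 libraries. That of Fcgr4 to Fcgr3 ran from -5.95 to -3.90. The -3.90 was that of the first 4-month white matter library, on 17 counts of Fcgr4, and the next highest was -4.95.

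The gamma chain was also set against the receptors that use it. The log2 ratio of summed activating receptor counts to Fcer1g was -0.12 and -0.19 in white matter at 21 months, against 0.13 and 0.13 in grey matter. At 4 months it was -0.015 and 0.18 in white and -0.054 and 0.34 in grey matter, with overlap. In white matter both 21-month libraries were below both 4-month ones, with a mean difference of -0.24, and in grey matter the ages overlapped. No test was made of this ratio, and how many of all genes part in the same way relative to Fcer1g was not counted. The ratio of Fcer1g to Fcrls, chosen after their values were seen, was 0.48 and -0.10 in white and -0.55 and -0.64 in grey matter at 21 months on the log2 scale. At 4 months it was 0.70 and -0.41 in white and -0.38 and -1.01 in grey matter, with overlap.

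**Figure D4:**
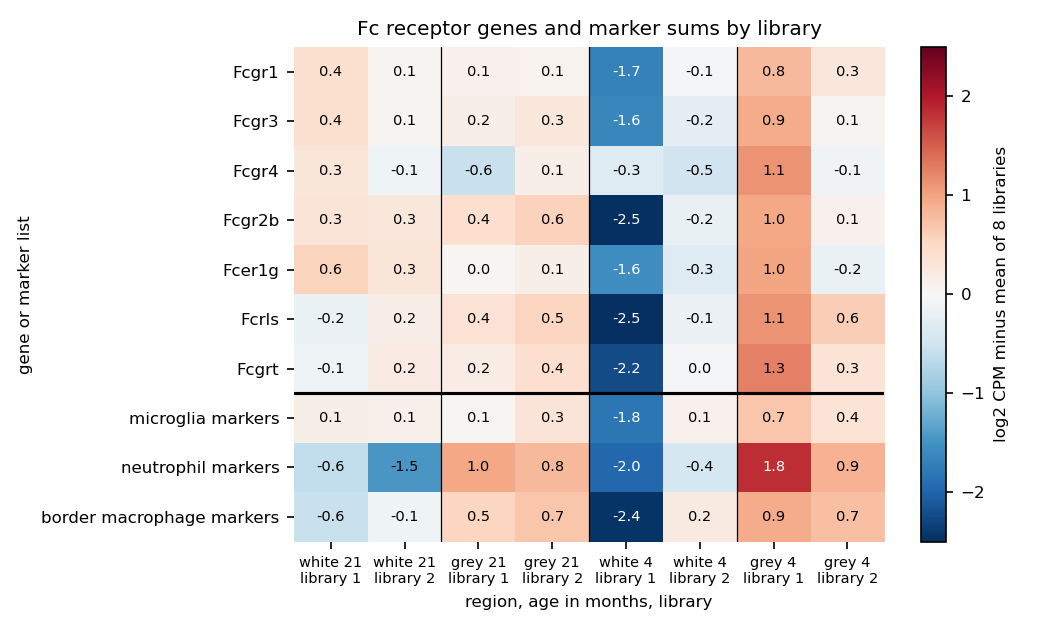
Log2 CPM minus the mean of the 8 libraries for the 7 genes and for the summed markers of microglia, neutrophils and border macrophages (rows), by library (columns); red is above and blue below the mean. The first 4-month white matter library is low in 6 of the 7 genes, from -2.49 to -1.55, and in the microglia markers at -1.80, and Fcgr4 is at -0.32 there.

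Fc gamma receptors and the neonatal receptor bind IgG, whose heavy chain transcripts were few. Ighg1 had 1 count in all 8 libraries together, Ighg3 41 and Ighg2b 203, and the IgE chain Ighe had 0. Of 12 immunoglobulin constant and joining chain genes 8 were tested, and none was called in any of the 5 comparisons with all libraries. Ighm, the heavy chain of IgM, which these receptors do not bind, had 92.3 to 482 CPM over the 8 libraries, lowest in the first 4-month white matter library. The IgG chain Ighg2c had 296 counts in the first 21-month grey matter library and 0 in the second, and 107 in the second 4-month grey matter library and 0 in the first. Igha, of IgA, likewise no ligand of these receptors, had 5.91 and 2.23 CPM in white and 24.6 and 37.7 CPM in grey matter at 21 months. It was the one gene of this list called in the fit of the 21-month libraries alone, at -2.92 with an adjusted p of 0.0127 in edgeR's test, where 1.58% of all genes were called. The 7 B cell markers summed to 14.9 and 15.1 CPM in white and 31.5 and 15.1 CPM in grey matter at 21 months, and their part in the immunoglobulin counts was not tested.

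Of 12 other Fc receptor genes 2 were tested, Fcrl1, known from B cells, and Trim21, a receptor for antibody in the cytosol. Fcrl1 had 25.3 and 28.1 CPM in white and 44.6 and 44.7 CPM in grey matter at 21 months, and 2.54 and 29.6 CPM in white and 89.8 and 46.4 CPM in grey matter at 4 months. It was not called at 21 months, at -0.74 ± 0.86 (SE) with all libraries and with an adjusted p of 0.134 in edgeR's test in those libraries alone. Fcer1a and Ms4a2, subunits of the IgE receptor of mast cells that also uses the gamma chain, had 2 and 15 counts in all 8 libraries together.

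Among the partner subunits, Tyrobp, an ITAM adaptor akin to the gamma chain, had 1103 and 875 CPM in white and 631 and 685 CPM in grey matter at 21 months. B2m, the light chain that pairs with Fcgrt, had 3736 and 3074 CPM in white and 1753 and 1943 CPM in grey matter at 21 months. Both were higher in white matter without overlap, as were 20.9% of all genes tested, whereas Fcgrt was not. With just the 21-month libraries fitted, 1 of the 4 partner subunits was called, against 1.58% of all genes. B2m rose by 0.87 ± 0.18 (SE), with an adjusted p of 0.0472 in edgeR's test, and Tyrobp differed by 0.58 ± 0.18 (SE) with an adjusted p of 0.19. With all libraries neither was called, and in white matter aging B2m differed by 1.57 ± 0.61 and Tyrobp by 1.43 ± 0.59 (SE), each with an adjusted p of 0.615 in edgeR's test.

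The 33 genes of ITAM signalling were all tested, and none was called in any comparison with all libraries. At 21 months 23 of them were on the higher and 10 on the lower side in white matter, with a median log2 fold change of 0.074 against 0.017 over all genes. Syk, the kinase recruited by phosphorylated ITAMs, had 189 and 149 CPM in white and 227 and 181 CPM in grey matter at 21 months, a difference of -0.27 ± 0.61 (SE). Lyn, a Src family kinase that acts on both ITAMs and ITIMs, differed by -0.18 ± 0.65 (SE). At 4 months 28 of the 33 were on the lower side in white matter (median -0.78), and 23 without the first library (median -0.11). In white matter aging 29 were on the higher side (median 0.59), and 19 without that library (median 0.087). Syk differed by 0.47 ± 0.62 and Lyn by 0.59 ± 0.65 there (SE), with adjusted p-values of 0.815 and 0.788 in edgeR's test.

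Of the 18 genes of ITIM and inhibitory signalling 17 were tested, again with none called in the fit of all libraries. At 21 months 6 were on the higher and 11 on the lower side in white matter (median -0.11). Inpp5d, the lipid phosphatase that acts downstream of Fcgr2b, differed by -0.11 ± 0.72 and Ptpn6, a tyrosine phosphatase recruited by ITIMs, by 0.26 ± 0.54 (SE). In the fit of the 21-month libraries alone 2 of 16 were called, against 1.58% of all genes. Cd72, an ITIM receptor best known in B cells, had 53.7 and 46.9 CPM in white and 17.0 and 17.3 CPM in grey matter and rose by 1.54 ± 0.22 (SE), with an adjusted p of 0.00747 in edgeR's test. Clec12a, an inhibitory lectin receptor of myeloid cells including neutrophils, had 5.68 and 3.72 CPM in white and 23.6 and 14.2 CPM in grey matter. It fell by 2.02 on the log2 scale, with an adjusted p of 0.0363 in edgeR's test, beside the lower neutrophil markers of white matter. At 4 months 16 of the 17 were on the lower side in white matter (median -0.93), and 12 without the first library (median -0.34). In white matter aging 14 were on the higher side (median 1.03), and 12 without that library (median 0.29). Inpp5d differed by 0.42 ± 0.72 and Ptpn6 by 1.06 ± 0.55 there (SE), with adjusted p-values of 0.858 and 0.625 in edgeR's test.

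Likeness of pattern was measured as the root mean square difference between centred log2 CPM over the 8 libraries, among about 6100 genes with a mean of at least 20 CPM. Nearest to Fcer1g were C1qc, a chain of complement C1q, at 0.099, then Tyrobp at 0.11 and Ptpn6 at 0.12. Nearest to Fcgr3 were Tnfrsf1a, Ptpn6 and Laptm5, at 0.091 to 0.099, and nearest to Fcgr1 were Irak4, Rnase4 and Lcp1, at 0.11 to 0.12. Fcrls and Fcgrt were each other's nearest gene, at 0.16. Nearest to Fcgr2b was Arhgap9 at 0.12, then Lag3 at 0.18 and Marcks at 0.19, and nearest to Fcgr4 were B3galnt1, Med22 and Tmsb4x at 0.18 to 0.24. Of the other 6 genes the nearest to Fcgr2b was Fcgrt at 0.24, while Fcgr1 and Fcgr3 lay 0.13 apart and Fcer1g and Fcgr3 0.15 apart. These distances share the first 4-month white matter library, in which 6 of the 7 genes were lowest. Over the other 7 libraries the nearest genes were Sh3bgrl3, C1qc and Rps24-ps3 for Fcer1g, Prpsap2, Ecscr and Slc1a3 for Fcrls, and Rnf130, Arhgap9 and Golph3l for Fcgr2b, and Fcgr2b then lay nearest to Fcgr3 among the 7, at 0.13.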

How the data were processed

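RNA was measured in 8 libraries, 2 for each of 4 groups of region and age, grouped by the sample titles. The deposited table holds estimated counts per gene. Partek and DESeq2 were named by the submitters' processing notes with no version or role. The sources used here do not name the aligner, build or annotation, or say whether strand was used. In each library 13.2% to 14.5% of the non-zero values were more than 0.01 from a whole number. The other deposited table gives a normalised signal for 18448 genes, which equals the rounded counts times 1 factor per library. It served in 1 alternative.

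The estimated counts were rounded, filtered with filterByExpr and scaled by TMM in edgeR 4.0.16 (R 4.3.3). The 4 group means were fitted to all 8 libraries with the robust quasi-likelihood model, with 4 residual degrees of freedom. The threshold was 0.05 on p-values adjusted by Benjamini-Hochberg over all genes tested. CPM values use the TMM scaling, and SEs of fold changes were computed from F. Alternatives were DESeq2 1.42.0, RLE scaling, no filter, limma 3.58.1 with voom quality weights or on log2 of the normalised signal plus a pseudocount of 1, the libraries of 1 age or region alone, the block of replicate numbers, counts without the 2 most abundant non-coding transcripts, leaving out each library and, added after the data were seen, scaling by microglia markers. The scripts were tested on simulated data. Intervals of counts and shares cover counting error only. No pair of libraries was identical. The 7 genes, the marker and pathway lists and the tests were chosen with earlier results of these data known. The text names the 7 genes in every comparison, up to 4 called genes of each list, Syk, Lyn, Inpp5d, Ptpn6, Tyrobp and B2m in 2 comparisons, and the 3 genes nearest in pattern, while Ighm, Ighg2c, Fcrl1, Trim21, Fcer1a and Ms4a2 were named after their values were seen.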

Additional observations from a re-analysis of the deposited data

How the results depend on the processing

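Of 588 fold changes of the 7 genes recomputed under 17 alternatives, 557 kept their direction and their side of the threshold, 13 changed sign and 18 became called. All 18 arose without the second 4-month white matter library. Fcgr3 at 21 months was at -0.0020 with limma on the deposited normalised signal. When scaled by microglia markers, Fcgr4 was at 0.61 (region, 4 months), -0.71 (white matter aging) and -0.23 (difference of aging changes), and Fcgr3 and Fcgr2b were at 0.038 and 0.26 (grey matter aging). When each library was left out, the region change at 21 months ran from -0.057 to 0.30 for Fcgr1, -0.18 to 0.18 for Fcgr3 and -0.034 to 0.71 for Fcgr4, and grey matter aging from -0.70 to 0.15 for Fcgr3, -0.48 to 0.38 for Fcgr2b and -0.90 to 0.25 for Fcer1g. Over all genes tested, white against grey matter at 21 months called 54 genes with DESeq2, 147 with no filter, 123 with voom weights, 232 in the same-age libraries alone and 0 to 19 when each library was left out. At 4 months 515 were called with DESeq2, 1113 with no filter and 0 to 4222 when each library was left out. White matter aging called 369, 963 and 0 to 4491 under these settings, grey matter aging 17 with no filter, and the difference of aging changes 20, 470 and 0 to 2422. The cause was not tested. Of the 7 genes, 0 to 6 were called when each library was left out at 4 months, in white matter aging and in the difference. With Fcer1g in place of Fcgr2b the activating ratio differed by -0.29 (region, 21 months), -0.062 (region, 4 months), -0.24 (white matter aging) and -0.011 (grey matter aging). With the replicate block 0 genes were called. Same-numbered libraries deviated together with r = 0.056 at 21 months and 0.42 at 4 months, and no label says that a number marks a pair. With 2 libraries a group, and 13 to 334 counts of Fcgr4 or Fcgrt a library, small differences in these genes were not detectable.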

Other observations

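Fcgr1, Fcgr3 and Fcer1g, taken as a share of the summed microglia markers of their own library, were higher in the first than in the second library of all 4 groups. The same held for 12.7% of the genes tested. Fcer1g was at 3.70% and 3.12% in white and 2.73% and 2.41% in grey matter at 21 months. At 4 months it was at 3.26% and 2.04% in white and 3.37% and 1.93% in grey matter. Fcrls and Fcgrt were higher in the first library in 2 of the 4 groups. No label says what the numbers 1 and 2 stand for.

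The share of Fcer1g was higher in both 21-month white matter libraries than in both 21-month grey matter libraries, and that of Fcrls lower, at 2.64% and 3.34% in white against 3.99% and 3.75% in grey matter. How many of all genes part in this way on this scale was not counted. Fcgr4 was at 0.142% in the first 4-month white matter library, against 0.0326% to 0.0713% in the other 7. That library had the lowest microglia marker sum, 4356 CPM. Its Fcgr4 level itself, 6.18 CPM on 17 counts, lay within the 5.15 to 17.6 CPM of the others.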
